A study of Mus musculus with 3 samples.

Results

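The chains described here are productive T cell receptor (TCR) α chains whose variable segment lies outside the TRAV14 family, found in thymocytes that had been sorted for surface Vα2. They were taken from the deposited contig table as productive TRA contigs with a V gene other than TRAV14, in barcodes of the deposited count matrix. There were 199 such chains among 7642 productive α chains, and they lay in 198 of 7312 cells. Of these chains, 158 were the only productive α chain of their cell (1-chain cells, 6982 in all) and 41 lay in cells with 2 productive α chains (330 in all). The other 7443 chains used TRAV14 genes and served as the comparison.

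Thymocytes of 8 female mice, 7 to 12 weeks old, were pooled, and every group below came from this pool. The mice (C56Bl/6- Tcliβ x TCRα+/- x Foxp3-GFP) carried a fixed TCRβ transgene, 1 intact TCRα allele and a GFP reporter for Foxp3, the transcription factor of regulatory T cells (Treg). Sorting gave 6 populations, all gated on surface Vα2. DP cells (CD4+CD8+) came from whole thymocytes, and the others from thymocytes depleted of CD8+ cells. These others were CD4 SP (CD4+ cells negative for CD73, CD25 and Foxp3), 2 progenitor populations named CD25+ TRP and Foxp3lo TRP, where TRP stands for Treg progenitor, and the mature CD73- Treg and CD73+ Treg. A hashtag marked the population of each cell, and RNA, hashtags and TCRα-enriched transcripts were sequenced. With 1 sorted sample per population and no label that ties a cell to a mouse, no test between populations was possible. Intervals are exact Clopper-Pearson 95% intervals that cover counting error only, and "apart" means that such intervals do not overlap.

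An α chain is made in DP thymocytes when RAG recombinase joins one of many TRAV segments to one of many TRAJ segments. The first joins tend to use TRAV and TRAJ segments that lie close to each other, and further rounds on the same allele can replace them with TRAV genes further upstream and TRAJ segments nearer the constant gene TRAC. In general a cell may carry more than 1 α rearrangement, though these mice had only 1 intact TCRα allele. The antibody to Vα2 recognises the product of TRAV14 genes. The product of another TRAV family in a Vα2-gated cell is therefore a chain that the gate did not select for. The CDR3 is the stretch where V and J meet, and it holds bases added without a template.

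Sequences of 4 sets of chains carry the results below. The first set is the 4 chains found in CD4 SP 1-chain cells, which shows how few there were. Sequences are the deposited CDR3 coding strands, 5′ to 3′, and capitals mark bases that matched neither the germline V end nor the germline J segment.

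TRAV4D-3 with TRAJ56: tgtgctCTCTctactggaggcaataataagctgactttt
TRAV12D-3 with TRAJ57: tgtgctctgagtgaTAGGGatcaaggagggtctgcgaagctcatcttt
TRAV7D-2 with TRAJ4: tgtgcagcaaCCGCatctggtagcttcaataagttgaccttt
TRAV16N with TRAJ18: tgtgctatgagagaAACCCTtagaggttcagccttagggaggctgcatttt

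The second set is the 8 chains of CD73+ Treg cells in the authors' cluster 2, where they made up 8 of 16 chains of 1-chain cells. Capitals mark unmatched bases as above.

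TRAV10 with TRAJ31: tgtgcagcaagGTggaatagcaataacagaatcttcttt
TRAV13-1 with TRAJ23: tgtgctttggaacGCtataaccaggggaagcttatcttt
TRAV4N-4 with TRAJ4: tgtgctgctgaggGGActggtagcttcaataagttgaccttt
TRAV6N-5 with TRAJ22: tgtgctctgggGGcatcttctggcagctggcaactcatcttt
TRAV7-4 with TRAJ21: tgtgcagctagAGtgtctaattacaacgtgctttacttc
TRAV7-5 with TRAJ11: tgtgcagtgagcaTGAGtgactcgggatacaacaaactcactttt
TRAV8-1 with TRAJ11: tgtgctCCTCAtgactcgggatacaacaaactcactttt
TRAV9N-4 with TRAJ30: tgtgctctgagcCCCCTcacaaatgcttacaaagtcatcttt

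The third set is the 3 chains with the most UMIs among DP 1-chain cells, shown because their depth makes them the best supported. UMIs are unique molecular identifiers, that is, counted cDNA molecules. The chains held 35, 34 and 33 UMIs in the order shown, and capitals again mark unmatched bases.

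TRAV15D-1-DV6D-1 with TRAJ12: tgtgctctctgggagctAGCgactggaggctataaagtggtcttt
TRAV8D-1 with TRAJ12: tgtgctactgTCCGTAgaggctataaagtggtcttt
TRAV12-2 with TRAJ38: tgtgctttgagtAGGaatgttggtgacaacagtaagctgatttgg

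Chains outside TRAV14 were mostly DP chains. In 1-chain cells they numbered 110 of 1266 in DP (8.69%, interval 7.20 to 10.4) and 4 of 1849 in CD4 SP (0.216%, 0.0590 to 0.553). The Treg progenitors had 16 of 1783 in CD25+ TRP (0.897%, 0.514 to 1.45) and 7 of 804 in Foxp3lo TRP (0.871%, 0.351 to 1.79). The Treg populations had 4 of 223 in CD73- Treg (1.79%, 0.491 to 4.53) and 17 of 1057 in CD73+ Treg (1.61%, 0.940 to 2.56).

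The DP interval lay apart from those of the other 5 populations. The order below DP was CD73- Treg, CD73+ Treg, CD25+ TRP, Foxp3lo TRP and CD4 SP. Among these, the intervals of CD73+ Treg and CD4 SP lay apart, and neighbours in the order overlapped. That separation was lost without clusters 1 and 2 of the authors' clustering, where CD73+ Treg had 0.588% (0.216 to 1.28) and CD4 SP 0.233% (0.00590 to 1.29). It was also lost without the clusters that hold under 5% of a population, at 0.365% (0.0752 to 1.06) and 0.193% (0.0399 to 0.564). The share of cells with a productive α chain in the table was lowest in DP (43.3%), highest in CD4 SP (79.5%) and 46.8 to 74.4% elsewhere.

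**Figure D1:**
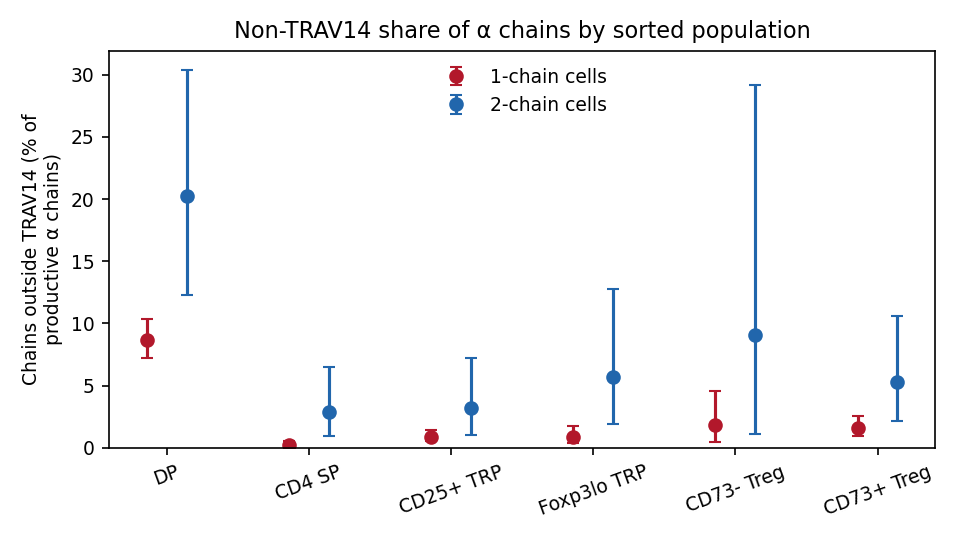
Share of productive α chains outside TRAV14 (%, y axis) in each sorted population (x axis), in 1-chain cells and in 2-chain cells. Points are shares and bars are exact 95% intervals of counting error. DP lies highest in both kinds of cell, at 8.69% and 20.2%. In 2-chain cells the DP interval (12.25 to 30.4) overlaps those of Foxp3lo TRP (1.87 to 12.76) and CD73- Treg (1.12 to 29.2).

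Within DP, the share differed between the authors' clusters, which are named by number because the deposited matrix rows carry no gene names. The 3 clusters that held most DP cells had 46 of 349 chains in cluster 4 (13.2%, 9.81 to 17.2), 21 of 580 in cluster 6 (3.62%, 2.26 to 5.48) and 34 of 214 in cluster 8 (15.9%, 11.3 to 21.5). The interval of cluster 6 lay apart from both others, and those of clusters 4 and 8 overlapped. Cluster 6 held 45.8% of DP 1-chain cells and 19.1% of the DP chains outside TRAV14. Median RNA UMIs of cells with TRAV14 chains were 1594 in cluster 4, 1620 in cluster 6 and 1139 in cluster 8. In cells with chains outside TRAV14 they were 1540, 1411 and 1236. Whether depth plays a part in these shares was not tested. DP-labelled cells of clusters 1 and 2, which held most CD4 SP cells, had 7 of 50 chains outside TRAV14 (14%, 5.82 to 26.7).

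In 1-chain cells of the Treg populations together these chains gathered in the same clusters 1 and 2. There they were 13 of 42 (31.0%, 17.6 to 47.1), and elsewhere 8 of 1238 (0.646%, 0.279 to 1.27). These clusters held 38.2% and 38.6% of CD4 SP 1-chain cells. In CD73+ Treg, cluster 2 had 8 of 16 chains outside TRAV14 (50%, 24.7 to 75.4), and their sequences are the second set above. Cluster 1 of CD73+ Treg added 3 of 21 (14.3%, 3.05 to 36.3). Together these clusters held 3.50% of CD73+ Treg 1-chain cells and 64.7% of the chains outside TRAV14 in such cells. The 7 chains outside TRAV14 in CD73+ Treg 2-chain cells lay mostly in other clusters, namely 3, 9 and 10.

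The remaining clusters of CD73+ Treg had 6 of 1020 (0.588%, 0.216 to 1.28). Of these 6, 2 lay in cluster 3 among 368 cells, 2 in cluster 5, and 1 each in clusters 0 and 14. Cluster 9, which held 234 CD73+ Treg 1-chain cells, had 0, which allows a share of up to 1.28%. Its 2-chain cells did hold such chains, of TRAV13D-2, TRAV7-4 and TRAV9N-4, with 36, 17 and 21 UMIs (counted cDNA molecules). The CD73- Treg population had 2 of 5 in clusters 1 and 2 (40%, 5.27 to 85.3) and 2 of 218 elsewhere (0.917%, 0.111 to 3.28).

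In the progenitors the same split gave intervals that overlap. CD25+ TRP had 10 of 582 in clusters 1 and 2 (1.72%, 0.827 to 3.14) and 6 of 1201 elsewhere (0.50%, 0.184 to 1.08). Clusters 5 and 7, the largest of CD25+ TRP, had 0 of 453 (up to 0.662% allowed) and 1 of 357. Foxp3lo TRP had 3 of 72 in clusters 1 and 2 (4.17%, 0.868 to 11.7) and 4 of 732 elsewhere (0.546%, 0.149 to 1.39).

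The CD4 SP population, whose own cells filled clusters 1 and 2, had 3 of 1420 there (0.211%, 0.0436 to 0.616) and 1 of 429 elsewhere (0.233%, 0.00590 to 1.29). The interval of CD4 SP in clusters 1 and 2 lay apart from those of DP, CD25+ TRP, Foxp3lo TRP and both Treg populations in the same clusters. In clusters 1 and 2 of CD73+ Treg, median RNA UMIs per cell were 2896 with a chain outside TRAV14 and 2729 with a TRAV14 chain. Whether hashtag or gate errors play a part in the Treg-labelled cells of clusters 1 and 2 was not tested.

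**Figure D2:**
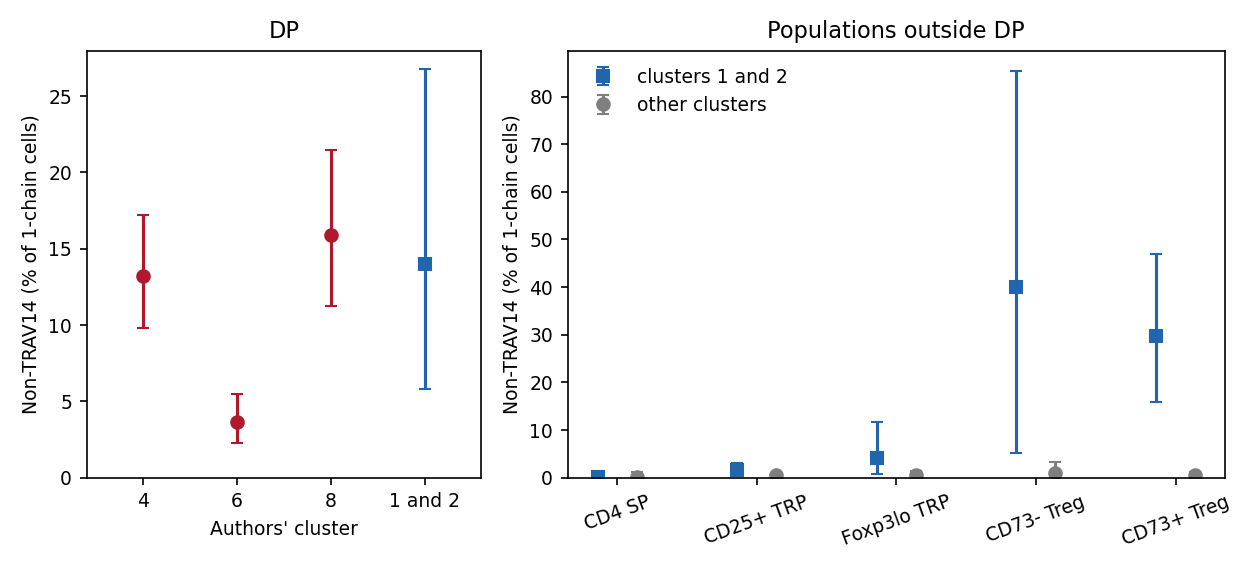
Share of 1-chain cells whose chain lies outside TRAV14 (%, y axes). Left, DP cells by the authors' cluster. Right, the other 5 populations (x axis), split into clusters 1 and 2 (squares) and the remaining clusters (circles). Bars are exact 95% intervals. The CD73+ Treg cells of clusters 1 and 2 reach 29.7%, against 0.588% in the remaining clusters.

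The 158 chains of 1-chain cells used 55 TRAV genes of 13 families, and all 199 used 58 genes of 15 families, out of 99 TRAV genes annotated outside TRAV14. Of these families, 10 had at least 5 chains among the 199 and are named here. The 199 chains were counted without a UMI minimum, and the 1 TRAV21 chain, from a 2-chain cell, had 1 UMI. TRAV13 led with 33 of 158 (20.9%, 14.8 to 28.1), followed by TRAV12 with 26 (16.5%, 11.0 to 23.2), TRAV7 with 25 (15.8%, 10.5 to 22.5) and TRAV6 with 17 (10.8%, 6.39 to 16.7). TRAV16 had 12, TRAV8 had 11, TRAV3 had 9, and TRAV4, TRAV9 and TRAV10 had 7 each.

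Families differ in size, and GENCODE annotates 11 genes in TRAV13, 9 in TRAV12, 13 in TRAV7 and 15 in TRAV6, but 3 in TRAV16. The neighbours TRAV13, TRAV12 and TRAV7 did not differ beyond their intervals.

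Between stages, TRAV7 took 12 of the 110 chains in DP (10.9%, 5.77 to 18.3) and 13 of the 48 outside it (27.1%, 15.3 to 41.9), with intervals that overlap. TRAV13 made up 27 DP chains (24.5%, 16.8 to 33.7) and 6 outside DP (12.5%, 4.73 to 25.3). TRAV12 made up 21 (19.1%, 12.2 to 27.7) and 5 (10.4%, 3.47 to 22.7), and TRAV16 made up 11 (10%, 5.10 to 17.2) and 1 (2.08%, 0.0527 to 11.1). None of the 10 named families had intervals apart between DP and the other populations.

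Single genes were spread along the TRAV array on the plus strand of chromosome 14 (GRCm38), and each is annotated as a TCR V gene. Of the 13 genes with at least 5 chains, TRAV13-1 (53545014 to 53545525) had 14 chains in all, 7 of them in DP and 5 outside DP in 1-chain cells. TRAV12-2 (53616315 to 53616914) had 11, with 7 and 3. TRAV7D-5 (52835858 to 52836387) had 11, with 7 and 1.

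TRAV7D-2 (52683964 to 52684472), the farthest from TRAC among the genes used in 1-chain cells, had 0 of 110 chains in DP 1-chain cells (up to 2.73% allowed) and 6 of 48 in 1-chain cells outside DP (12.5%, 4.73 to 25.3). These 6 lay in CD4 SP (1), CD25+ TRP (2) and CD73+ Treg (3). Its interval outside DP lay apart from that in DP, whose exact upper bound is 3.30%, and among 1-chain cells it was the 1 gene of the 13 with intervals apart. With 2-chain cells included, which add a DP chain of 2 UMIs, TRAV7D-2 had 1 of 127 chains in DP (0.787%, 0.0199 to 4.31) and 7 of 72 outside DP (9.72%, 3.999 to 19.0). These intervals overlap, and 0 of the 13 genes had intervals apart in that count. TRAV13D-1 (52851290 to 52851866) had 8 chains in DP 1-chain cells (7.27%, 3.19 to 13.8) and 0 of 48 outside DP (up to 6.25% allowed), and its intervals overlap.

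The other named genes had 5 to 9 chains each: TRAV6N-7, TRAV12D-2, TRAV16N, TRAV3-3, TRAV4N-4, TRAV7-5, TRAV12D-3 and TRAV6-7-DV9. The copies marked D and N in their names arose by duplication of part of the locus and resemble each other closely, so which copy a chain used is uncertain. Chains without such a mark were 42.7% of DP chains outside TRAV14 (33.3 to 52.5) and 45.2% of DP TRAV14 chains (42.3 to 48.1).

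Invariant natural killer T cells use TRAV11 with TRAJ18, and MAIT cells use TRAV1 with TRAJ33. Neither pair was found among the 199 chains, and neither TRAV11 nor TRAV1 occurred with any TRAJ, which allows up to 1.51% of chains. Because all cells were gated on surface Vα2, this absence cannot show whether such cells were in the thymus. TRAV11 was in 1 of 235 productive chains outside TRAV14 in barcodes outside the matrix, and in 1 of 255 nonproductive contigs. TRAJ18 occurred in 4 chains, joined to TRAV3-3, TRAV7D-2, TRAV7-3 and TRAV16N. TRAV genes with a DV name, which can also join δ segments, gave 15 of the 199 chains.

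**Figure D3:**
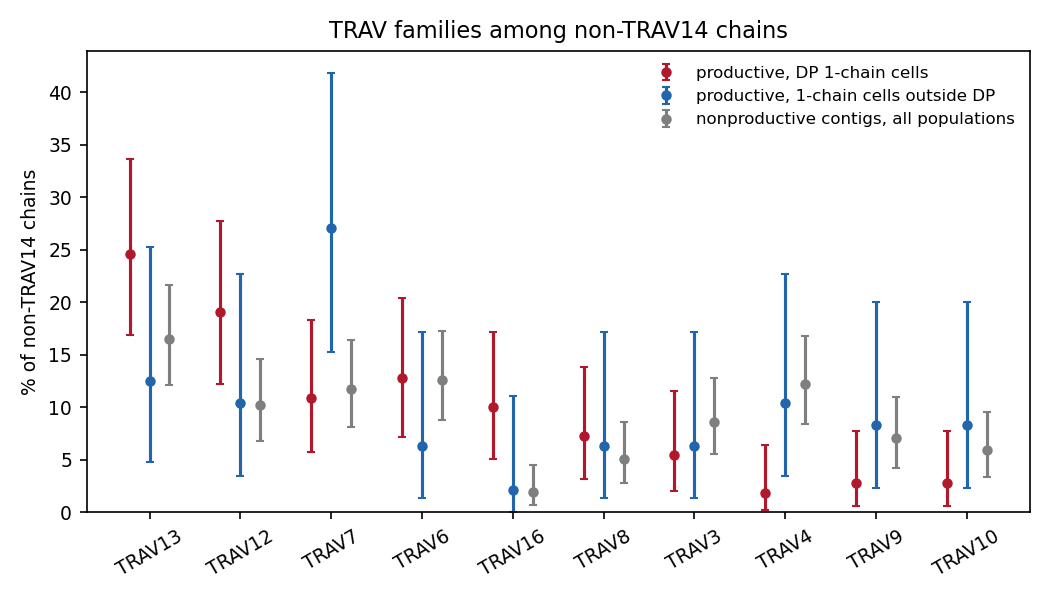
Share of each named TRAV family (x axis) among chains outside TRAV14 (%, y axis), for productive chains of DP 1-chain cells (n = 110), productive chains of 1-chain cells outside DP (n = 48) and nonproductive contigs of all populations (n = 255). Bars are exact 95% intervals. TRAV16 is at 10% in DP and 1.96% of nonproductive contigs. Equal rearrangements among nonproductive contigs were not merged.

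Nonproductive α contigs, which encode no complete chain, were set beside the productive ones. Each contig was counted, and equal rearrangements in different cells were not merged, so the intervals of nonproductive shares may be too narrow. Of 272 nonproductive contigs with a V gene in cells of the matrix, 255 lay outside TRAV14, and 235 of their 253 cells also had a productive TRAV14 chain. TRAV13 again led with 42 (16.5%, 12.1 to 21.6). TRAV16 gave 5 of 255 (1.96%, 0.640 to 4.52), apart from its 10% of productive DP chains, and TRAV4 gave 31 (12.2%, 8.41 to 16.8), apart from its 2 of 110 productive DP chains (1.82%, 0.221 to 6.41).

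Against the 69 nonproductive contigs of DP cells alone, TRAV16 (4.35%, 0.906 to 12.2) and TRAV4 (11.6%, 5.14 to 21.6) overlapped their productive DP shares. TRAV12 lay apart there, with 1 of 69 nonproductive contigs (1.45%, 0.0367 to 7.81) and 19.1% of productive chains. Over all 255 nonproductive contigs TRAV12 had 26 (10.2%, 6.77 to 14.6), which overlaps its productive DP share. By gene as named, TRAV12-2 had 10 productive chains in 1-chain cells and 0 nonproductive contigs, and TRAV12D-2 had 6 and 18. These counts mix stages, since 1 of the 26 nonproductive TRAV12 contigs came from DP. Which copy a chain used is also uncertain, so they cannot show a difference between the genes.

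The 158 chains joined 39 different TRAJ segments, and no segment took more than 9 chains. TRAJ21 and TRAJ22 had 9 each, TRAJ15 and TRAJ17 had 8 each, and TRAJ4, TRAJ12, TRAJ33 and TRAJ34 had 7 each. In DP, none of 43 TRAJ segments had intervals apart between chains outside TRAV14 and TRAV14 chains. TRAJ34 made up 6.36% of the former (2.60 to 12.7) and 3.03% of the latter (2.12 to 4.19), and TRAJ43 made up 5.45% (2.03 to 11.5) and 1.82% (1.13 to 2.76).

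TRAJ segments numbered 40 or higher, on the side of the TRAV genes, were the partner of 28 of 110 DP chains outside TRAV14 (25.5%, 17.6 to 34.7) and 357 of 1156 DP TRAV14 chains (30.9%, 28.2 to 33.6). Outside DP they made up 5 of 48 (10.4%, 3.47 to 22.7) and 947 of 5668 TRAV14 chains (16.7%, 15.8 to 17.7). The chains outside TRAV14 thus overlapped the TRAV14 chains at both stages. The 5 chains came from CD4 SP (2 of 4) and Foxp3lo TRP (3 of 7). CD25+ TRP, CD73- Treg and CD73+ Treg had 0 of 16, 0 of 4 and 0 of 17, which allows up to 18.75%, 75% and 17.65%. TRAV14 chains of these populations had 16.2%, 10.5% and 16.5%, each below the share allowed.

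In DP the TRAJ partner followed the position of the TRAV gene as named. Which copy a chain used is uncertain, and so is its distance, with 36 of the 110 DP chains named as D copies and 27 as N copies. TRAV genes within 750 kb of TRAC had TRAJ segments numbered 40 or higher in 22 of 45 DP chains (48.9%, 33.7 to 64.2), with a median TRAJ number of 39. Genes farther away had them in 6 of 65 (9.23%, 3.46 to 19.0), with a median of 17. TRAV14 chains of DP had 51.0% (46.6 to 55.3) and 14.4% (11.7 to 17.3) in the same split, with intervals that overlap those of the other families.

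Across the 110 DP chains, Spearman's rho between distance from TRAC and TRAJ number was -0.69. It was -0.50 across 1156 DP TRAV14 chains, -0.23 across the 48 chains outside DP and -0.46 across 5668 TRAV14 chains outside DP. These describe chains of 1 library and carry no test. Median distance from TRAC was 874.1 kb for the DP chains, 885.1 kb for those outside DP and 849.9 kb for DP TRAV14 chains.

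**Figure D4:**
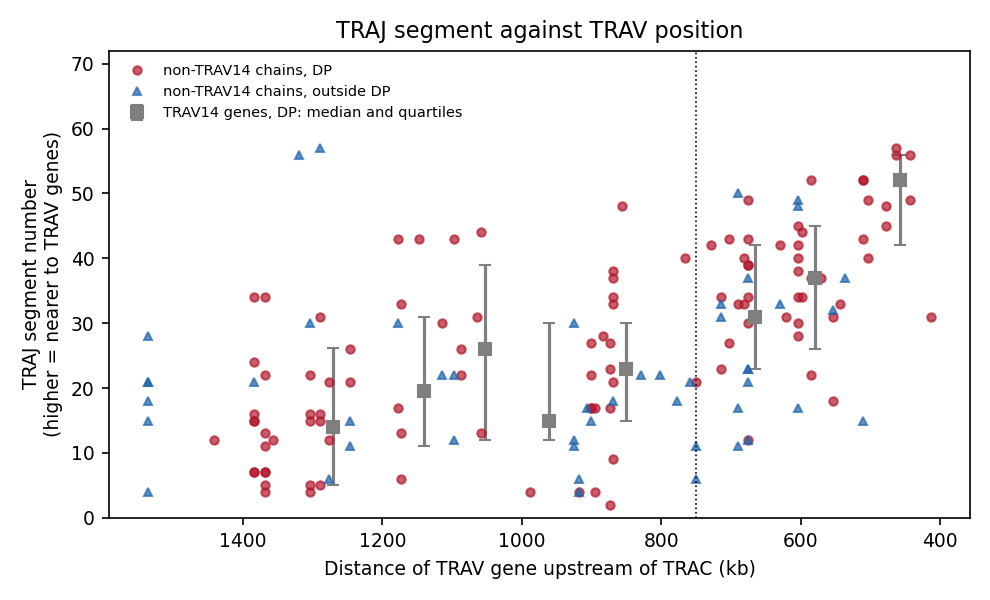
TRAJ segment number (y axis) against the distance of the TRAV gene upstream of TRAC in kb (x axis, nearer genes to the right). Circles and triangles are single chains outside TRAV14 in 1-chain cells, and squares are the 8 TRAV14 genes found in DP with the median and quartiles of their TRAJ numbers. The dotted line is at 750 kb. In DP, genes nearer to TRAC sit with higher TRAJ numbers.

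The chains outside TRAV14 were supported by about as many α UMIs as TRAV14 chains outside DP, and by somewhat fewer in DP. In DP the median was 11 UMIs (quartiles 9 to 15, range 2 to 35) against 14 for TRAV14 chains (10 to 19), and 64.5% of the former lay below the TRAV14 median (54.9 to 73.4). Their cells also had fewer RNA UMIs, with a median of 1431 against 1586, and 68.2% lay below the TRAV14 median (58.6 to 76.7). Within clusters the DP medians of α UMIs were 12 and 13 in cluster 4, 12 and 14 in cluster 6, and 10.5 and 10 in cluster 8, in each case with the chains outside TRAV14 given first.

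The 4 CD4 SP chains printed above had 16, 19, 20 and 15 UMIs, against a TRAV14 median of 19. The 16 CD25+ TRP chains had a lowest value of 11, a median of 20 and a highest of 36, against a TRAV14 median of 22. The 7 Foxp3lo TRP chains had 7, 20 and 30, against a median of 14. The 4 CD73- Treg chains ran from 19 to 25 and the 17 CD73+ Treg chains from 5 to 29 with a median of 19, against TRAV14 medians of 17 and 19. Both kinds of chain overlapped in every population. In 1-chain cells, chains at 3 UMIs or fewer were 2 of 158 outside TRAV14 and 33 of 6824 TRAV14 chains.

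**Figure D5:**
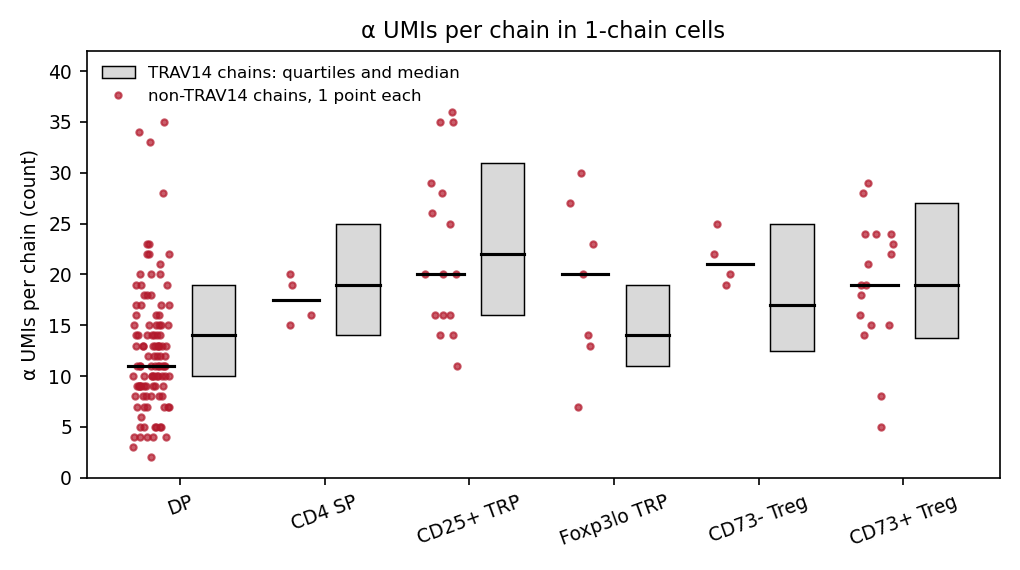
α UMIs per productive chain (y axis, count) in 1-chain cells of each population (x axis). Points are single chains outside TRAV14 with a bar at their median, and boxes give quartiles and median of TRAV14 chains. In DP the medians are 11 and 14, and both kinds overlap in all 6 populations.

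A productive contig of the β chain was found in 13 of 110 DP cells with a chain outside TRAV14 (11.8%, 6.45 to 19.4) and 158 of 1156 with a TRAV14 chain (13.7%, 11.7 to 15.8). The β segment TRBV19 was in 11 of these 13 cells and in 141 of these 158. Outside DP the shares were 4 of 48 (8.33%, 2.32 to 19.98) and 13.5% (12.7 to 14.5). The library was enriched for α transcripts and not for β.

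Cells with 2 productive α chains mostly carried TRAV14 on both. Of 330 such cells, 290 had 2 TRAV14 chains, 39 had 1 TRAV14 chain and 1 outside it (11.8%, 8.54 to 15.8), and 1, a DP cell, had 2 chains outside TRAV14. The mixed pair was seen in 15 of 42 DP cells (35.7%, 21.6 to 52.0) and, in CD4 SP, in 5 of 88 (5.68%, 1.87 to 12.8), with intervals apart. Among progenitors it was seen in 5 of 79 CD25+ TRP and 5 of 44 Foxp3lo TRP cells. The Treg counts were 2 of 11 (CD73-) and 7 of 66 (CD73+).

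In the 39 mixed cells the chain outside TRAV14 had a median of 6 UMIs (range 1 to 60) and the TRAV14 chain a median of 9 (3 to 46). By population, the chain outside TRAV14 had the higher median in DP (11 and 9) and CD73+ Treg (13 and 9). It had the lower median in CD4 SP (5 and 10), CD25+ TRP (4 and 23), Foxp3lo TRP (3 and 4) and CD73- Treg (9.5 and 24.5). The TRAV14 chain had more UMIs in 20 of the 39 cells (51.3%, 34.8 to 67.6) and the other chain in 19. The chain outside TRAV14 used the higher TRAJ number in 25 of 39 (64.1%, 47.2 to 78.8). Pairs were counted without a UMI minimum. At a minimum of 3 UMIs, 30 of 625 chains in 2-chain cells lay outside TRAV14 (4.80%, 3.26 to 6.78). Without it they were 41 of 660 (6.21%, 4.49 to 8.33). Median RNA UMIs were 2973 in mixed cells, 5456 in cells with 2 TRAV14 chains, 2634 in 1-chain cells with TRAV14 and 1614 in 1-chain cells with another family. No doublet caller was run, and the part of doublets in the 2-chain cells was not tested. How a second productive chain came to be found in cells of mice with 1 intact TCRα allele was not tested either.

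Each of the 158 chains was a different rearrangement, as were all 199 chains when 2-chain cells were included, taking a rearrangement as V gene, J gene and CDR3 nucleotide sequence. A count of 0 recurring chains of 199 allows a share of up to 1.51%. Among TRAV14 chains of 1-chain cells, 2839 of 6824 recurred (41.6%, 40.4 to 42.8). Recurrence grows with the number of chains compared, so it was also counted over pairs of chains within a stage.

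In DP, 0 of 5995 pairs of chains outside TRAV14 were equal, which allows up to 5.00 per 10000 pairs, against 0.719 per 10000 for TRAV14. Outside DP, 0 of 1128 pairs were equal, which allows up to 26.6 per 10000, against 12.5. Pairs share chains and are not independent, so both allowed values may be too low. A difference in recurrence within a stage was thus not detectable at this number of chains. None of the 199 rearrangements was found in barcodes outside the matrix, where 42.9% of TRAV14 chains of the matrix were found again (41.8 to 44.0). The pools searched were unlike, since only 235 of the 7987 chains outside the matrix lay outside TRAV14. Stages were also mixed and no pairs were counted here, so these shares cannot show a difference in recurrence.

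At the level of protein, 4 CDR3 were each carried by 2 of the 158 chains. These pairs are the fourth set of sequences, in which capitals mark the bases that differ within a pair.

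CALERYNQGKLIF, TRAV13-1 with TRAJ23 in CD25+ TRP: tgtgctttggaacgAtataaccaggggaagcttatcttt
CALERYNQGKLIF, TRAV13-1 with TRAJ23 in CD73+ Treg: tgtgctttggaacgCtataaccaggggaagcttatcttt
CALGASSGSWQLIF, TRAV6N-5 with TRAJ22 in CD73+ Treg: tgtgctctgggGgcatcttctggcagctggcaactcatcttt
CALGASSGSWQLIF, TRAV6N-7 with TRAJ22 in DP: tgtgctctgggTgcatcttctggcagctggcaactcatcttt
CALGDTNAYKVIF, TRAV13-1 with TRAJ30 in DP: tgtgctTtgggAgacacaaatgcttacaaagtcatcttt
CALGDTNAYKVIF, TRAV6N-5 with TRAJ30 in DP: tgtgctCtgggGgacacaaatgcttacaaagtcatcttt
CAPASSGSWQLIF, TRAV13D-1 with TRAJ22 in DP: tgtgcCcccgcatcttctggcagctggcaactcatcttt
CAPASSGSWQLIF, TRAV7-2 with TRAJ22 in CD73+ Treg: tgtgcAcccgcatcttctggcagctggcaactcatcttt

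Only the pair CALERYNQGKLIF shared its V gene as well as its J gene. Its chains differed by 1 base and came from a CD25+ TRP cell and a CD73+ Treg cell, both in cluster 2, with 35 and 24 UMIs. The other 3 pairs joined different TRAV genes to the same TRAJ segment and differed by 1 or 2 bases. Of the 199 chains, 15 had a CDR3 protein sequence that also occurred on a TRAV14 chain (7.54%, 4.28 to 12.1), among them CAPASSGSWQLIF with 1 TRAV14 chain.

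The junctions of DP chains outside TRAV14 resembled those of DP TRAV14 chains in length and makeup. Their CDR3 averaged 13.7 ± 1.42 residues (SD over 110 chains) and that of TRAV14 chains 13.6 ± 1.39 (1156 chains). Matched to the germline segments, the CDR3 of the former held 11.5 V bases, 2.91 unmatched bases and 26.7 J bases on average, and that of the latter 11.3, 2.92 and 26.6. No unmatched base was found in 12 of 110 chains (10.9%, 5.77 to 18.3) and in 153 of 1156 (13.2%, 11.3 to 15.3). Outside DP, chains without an unmatched base were 5 of 48 (10.4%, 3.47 to 22.7) outside TRAV14. TRAV14 chains there gave 17.0% (16.1 to 18.0) by cell and 7.78% (6.93 to 8.70) by different rearrangement, both within the former interval.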

How the data were processed

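Gene expression, hashtag and α-enriched TCR libraries were made from the same cells with the 10x 5' v2 kit, per the labels' protocols. Cell Ranger 3.1.0, Seurat 3.1.1, mm10 and GRCm38 are named in the submitters' processing notes. For which step each was used, how cells were filtered and whether doublets were removed is not given in the sources used here. No doublet caller was run. The deposited contig table gives UMI and read counts per contig for 21598 contigs in 12771 barcodes, of which 7379 are in the deposited matrix of raw UMI counts (12208 cells, 34190869 UMIs). The deposited metadata rows follow the matrix columns, and clonotype names matched for 6982 of 6982 cells. The hashtag class written only as Treg was taken as CD73- Treg. The deposited normalized matrix was not used here. Matrix rows carry no gene names, so no marker could be checked and clusters stay numbers.

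Chains were counted in Python 3.11.15 (pandas 2.3.3, scipy 1.17.1). The 109 TRAV and TRAJ names were found in GENCODE M21 (GRCm38), which gave coordinates and germline sequence. V bases were the longest match from the CDR3 start to the last 45 bases of the V transcript, and J bases the longest CDR3 end found in the J transcript. Intervals and the junction split were first tested on simulated data. For a count of 0, the share of 3 chains is given. Families, genes and TRAJ segments with at least 5 of the 199 chains, repeated sequences, the fixed lists (TRAV11 with TRAJ18, TRAV1 with TRAJ33, DV genes), chains outside DP and the 3 DP chains with the most UMIs were eligible to be named. The members and lists were chosen with earlier results of these data known. The split into clusters 1 and 2 and others, the 750 kb split, the TRAJ bins, the junction split, the comparison with nonproductive contigs, the counts over pairs and the share below the TRAV14 median were chosen after values were seen. Precision is limited by 4 to 17 chains per population outside DP. Alternatives were other chain sets, UMI minimum, counting by rearrangement and subsets of cells.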

Additional observations from a re-analysis of the deposited data

Results flagged for a closer look

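Barcodes of the contig table that are not in the count matrix, and so have no population, also held productive chains outside TRAV14. They were 235 of 7987 chains (2.94%, 2.58 to 3.34), close to the 2.60% of the matrix (2.26 to 2.99). Among barcodes with 1 productive α chain they were 65 of 2747 (2.37%, 1.83 to 3.01). Of the 235 chains, 16 shared their rearrangement with another such barcode (6.81%, 3.94 to 10.8), and 48.8% of these barcodes had 2 productive α chains, against 4.51% of cells in the matrix.

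Nonproductive α contigs, which the comparisons by population did not use, lay outside TRAV14 in 93.8% of cases (255 of 272 with a V gene, 90.2 to 96.3). The share ran from 91.2% in CD73+ Treg (31 of 34) to 100% in CD73- Treg (5 of 5) and was 93.2% in DP (69 of 74). These contigs lay in 253 cells, of which 235 also had a productive TRAV14 chain, and their median was 10 UMIs.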

How the results depend on the processing

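Of 78 alternative values computed for 25 results, 70 stayed within the exact interval of the value reported and 8 did not. With cells that have a productive β contig, the share outside TRAV14 was 0% of 249 CD4 SP, 60 Foxp3lo TRP and 18 CD73- Treg cells, a subset that is far smaller. Without clusters that hold under 5% of a population, the CD73+ Treg share was 0.365% (3 of 823), a filter that there removes clusters 1, 2, 5, 6, 10, 11, 12 and 14. Without clusters 1 and 2, a choice made after seeing the data, it was 0.588% in CD73+ Treg and 0.50% in CD25+ TRP, against 8.47% in DP. Under both settings the intervals of CD73+ Treg and CD4 SP overlap. Adding 2-chain cells, also chosen after seeing the data, ended the separation of DP from the other populations for TRAV7D-2. Without the top 5% of cells by RNA UMIs, 2-chain cells had 9.14% (36 of 394 chains) in place of 6.21%. By CDR3 amino acids alone, 5.06% of the 158 chains recurred, in place of 0%. No paired analysis was possible because there was 1 pool of mice and 1 sorted sample per population. The small number of chains outside DP, 48, limits each comparison of genes, TRAJ segments and recurrence there.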

Other observations

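The named chains of the smaller sets used varied V and J genes. The 4 CD73- Treg chains of 1-chain cells joined TRAV7-3 to TRAJ18, TRAV4-4-DV10 to TRAJ37, TRAV8-1 to TRAJ6 and TRAV5N-4 to TRAJ17, with 22, 25, 20 and 19 UMIs, and lay in clusters 0, 1, 2 and 12. The 7 Foxp3lo TRP chains used TRAV12-2 in 3 cells, joined to TRAJ48, TRAJ17 and TRAJ49, with 14, 20 and 23 UMIs. The remaining 4 Foxp3lo TRP chains joined TRAV6-7-DV9 to TRAJ15, TRAV13D-2 to TRAJ6, TRAV9N-4 to TRAJ12 and TRAV7-5 to TRAJ50. In CD25+ TRP, TRAV13-1 gave 3 of the 16 chains, with TRAJ12, TRAJ23 and TRAJ37, and TRAV7D-2 and TRAV10N gave 2 each.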
